A study of Mus musculus with 9 samples.

Results

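The genes described here were 9 genes through which fat cells take up, bind and store fatty acids: Cd36, Slc27a1, Acsl1, Fabp4, Fabp5, Lpl, Vldlr, Lrp1 and Pnpla3. Each was measured by the exon-array probe sets (groups of short probes, mostly lying in 1 exon) whose annotation gives it as the only gene symbol, 224 probe sets of 208397 with a single symbol, and these were summarised to 9 gene values of 16299. All 9 genes had at least 3 probe sets and passed the filter on low values, and 11342 genes of the array were tested. Total RNA came from perigonadal white adipose tissue, the fat depot around the gonads, of mice aged 4 months. Wild-type mice (WT) were compared with mice homozygous for G609G and with mice homozygous for LCS, 3 arrays in each group, and the labels give no sex, strain or treatment. Both mutations are known to lie in Lmna, which encodes A-type nuclear lamins. The G609G mutation models progeria, since it leads to splicing of progerin, a shortened lamin A, whereas LCS mice make lamin C but no lamin A. Both alleles are germ-line, so every cell type of the depot carries them. The labels do not say whether an array held 1 animal or a pool, so p-values measure the spread between these arrays.

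Fatty acids reach an adipocyte along 2 routes. Circulating triglyceride-rich lipoproteins are hydrolysed on the capillary wall by lipoprotein lipase, and the fatty acids set free are taken up by the scavenger receptor Cd36 and by transport proteins of the Slc27a family, trapped as acyl-CoA by synthetases such as Acsl1, and carried in the cytosol by the fatty acid binding proteins. Lipoprotein particles are also bound or internalised by receptors of the LDL receptor family, among them Vldlr and Lrp1. Stored triglyceride lies in lipid droplets, whose surface carries enzymes of the patatin family such as Pnpla3.

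Promoter sequences are shown for the member that moved furthest in opposite directions in the mutants (Pnpla3), for the receptor raised most in G609G (Lrp1) and for the fatty acid receptor that moved little (Cd36). Each is the 250 bases before the annotated start, read 5′ to 3′ on the gene's strand, from RefSeq on GRCm38.p6, at chr15:84167566-84167815 (plus strand), chr10:127621149-127621398 (minus strand) and chr5:17835897-17836146 (minus strand). Capitals mark matches, on either strand, to the motifs searched.
Pnpla3: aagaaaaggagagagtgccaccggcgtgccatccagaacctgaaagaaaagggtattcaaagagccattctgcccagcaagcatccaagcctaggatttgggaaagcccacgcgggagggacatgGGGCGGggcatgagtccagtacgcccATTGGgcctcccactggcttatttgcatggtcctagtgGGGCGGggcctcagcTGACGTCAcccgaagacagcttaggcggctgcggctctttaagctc
Lrp1: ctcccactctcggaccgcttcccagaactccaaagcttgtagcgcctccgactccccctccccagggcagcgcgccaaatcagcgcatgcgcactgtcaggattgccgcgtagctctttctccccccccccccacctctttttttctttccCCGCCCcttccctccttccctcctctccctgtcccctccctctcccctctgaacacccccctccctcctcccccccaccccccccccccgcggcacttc
Cd36: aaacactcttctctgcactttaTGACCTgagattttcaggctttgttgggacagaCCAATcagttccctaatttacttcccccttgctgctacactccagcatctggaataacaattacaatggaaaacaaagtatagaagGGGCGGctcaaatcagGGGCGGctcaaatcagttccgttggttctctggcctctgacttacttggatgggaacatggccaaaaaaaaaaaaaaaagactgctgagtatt
The motifs were the CCAAT box (CCAAT, in 33.8% of all 32851 promoter windows of this length), the GC box (GGGCGG, 32.7%), the E-box (CACGTG, 6.02%), the cAMP response element (TGACGTCA, 1.55%), the nuclear receptor half-site (AGGTCA, 14%), a direct repeat of that half-site spaced by 1 base as PPAR dimers bind (AGGTCANAGGTCA, 0.0335%) and the TATA box (TATAAA, 12.4%). The Pnpla3 window held 2 GC boxes, a CCAAT box on the opposite strand and a full cAMP response element from 46 to 39 bases before the start. The Lrp1 window held 1 GC box, on the opposite strand from 99 to 94 bases before the start. The Cd36 window held a CCAAT box, 2 GC boxes and, on the opposite strand, a nuclear receptor half-site from 228 to 223 bases before the start. The direct repeat, the E-box and the TATA box were in none of the 3 windows. A direct repeat match also counts as 2 half-sites. Of the 9 genes, 6 matched the promoter table; Lpl, Fabp4 and Fabp5 did not. These matches describe letters only, and no binding was measured.

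All gene values below are log2 intensities relative to the median gene of each array. They depend on how well each gene's probes hybridise, so a value is compared between arrays for 1 gene and never between genes. The scale matters here, because the deposited values of the G609G arrays lay lower for most genes: the shift between the deposited and the relative scale was -0.46 for G609G minus WT, 0.034 for LCS minus WT and -0.50 for G609G minus LCS. The median fold of all 11342 tested genes was -0.47 as deposited and -0.0050 on the relative scale for G609G minus WT. Adipoq, the adipocyte hormone adiponectin, was at 13.21 in WT, 12.87 in G609G and 13.21 in LCS, and the other groups of cell markers are given with the results they move with. Within groups, gene values of the arrays correlated with r from 0.990 to 0.998 across genes, which are not independent replicates.

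The 9 genes moved in different directions in G609G. On the relative scale 4 were higher and 5 lower than in WT (limma, adjusted p under 0.05), where 34% of all tested genes were called higher and 36.7% lower, so the share called, 9 of 9, stands beside a background of 70.7%. Groups did not overlap for 8 of the 9 genes, against 71.6% of all genes. Folds ran from -1.57 to 0.99 with a median of -0.090, where the middle of all genes, from the lower to the upper quartile, ran from -0.38 to 0.31. Fabp5, Pnpla3, Lrp1, Slc27a1 and Vldlr lay outside that range, and Cd36, Lpl, Fabp4 and Acsl1 inside it. As deposited 3 genes were higher and 6 lower, against 8.26% and 71.3% of all genes, since Acsl1 turned.

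In LCS 4 of the 9 genes were higher than in WT (Pnpla3, Vldlr, Fabp5 and Lrp1) and none was lower, where 22.3% of all genes were called higher and 17.7% lower, 40% in all. All 9 folds were above 0, the lowest at 0.0089, so no threshold on p could call a member lower. Groups did not overlap for 6 of the 9 genes, against 57.8% of all genes. The median fold of the 9 was 0.088 and that of all genes 0.019. As deposited Cd36 and Fabp4 passed as well, so that 6 were higher and none lower, against 22.5% and 13% of all genes. Between the mutants, G609G minus LCS, 4 were higher and 5 lower, against 36.9% of all genes in each direction and 73.8% in all, and the groups did not overlap for any of the 9, against 75.3%. As deposited 2 were higher and 6 lower, against 9.38% and 70.5%. The LCS and G609G comparisons with WT share the WT arrays, so their values are set side by side and the direct comparison of the mutants is the test of the difference.

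**Figure D1:**
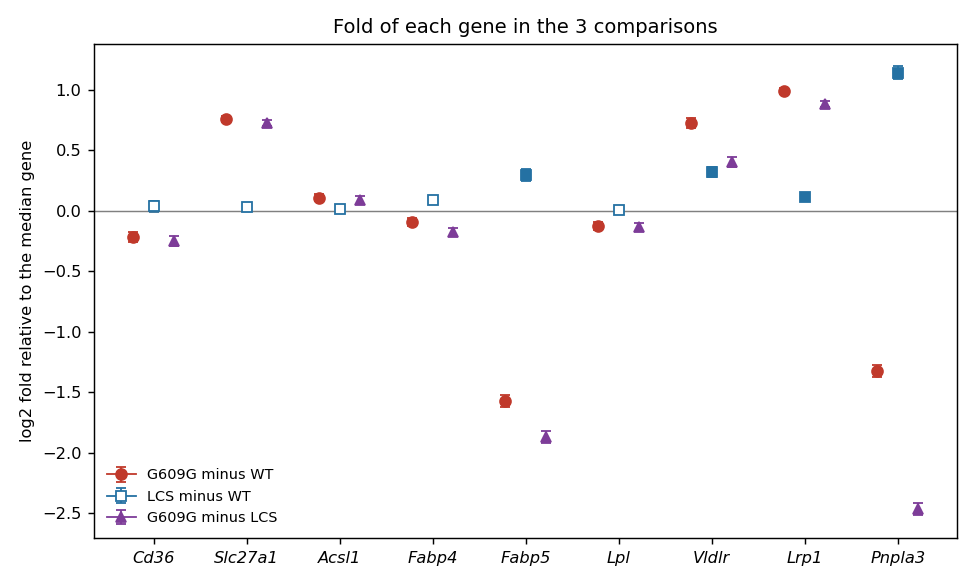
Log2 fold of each of the 9 genes relative to the median gene (y axis) in the 3 comparisons, with bars of 1 SE of the limma fit on 9 arrays; filled symbols passed an adjusted p of 0.05 and open ones did not. Fabp5 and Pnpla3 lie below 0 in G609G minus WT and above it in LCS minus WT, and Lrp1, Slc27a1 and Vldlr are the genes raised most in G609G.

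**Figure D2:**
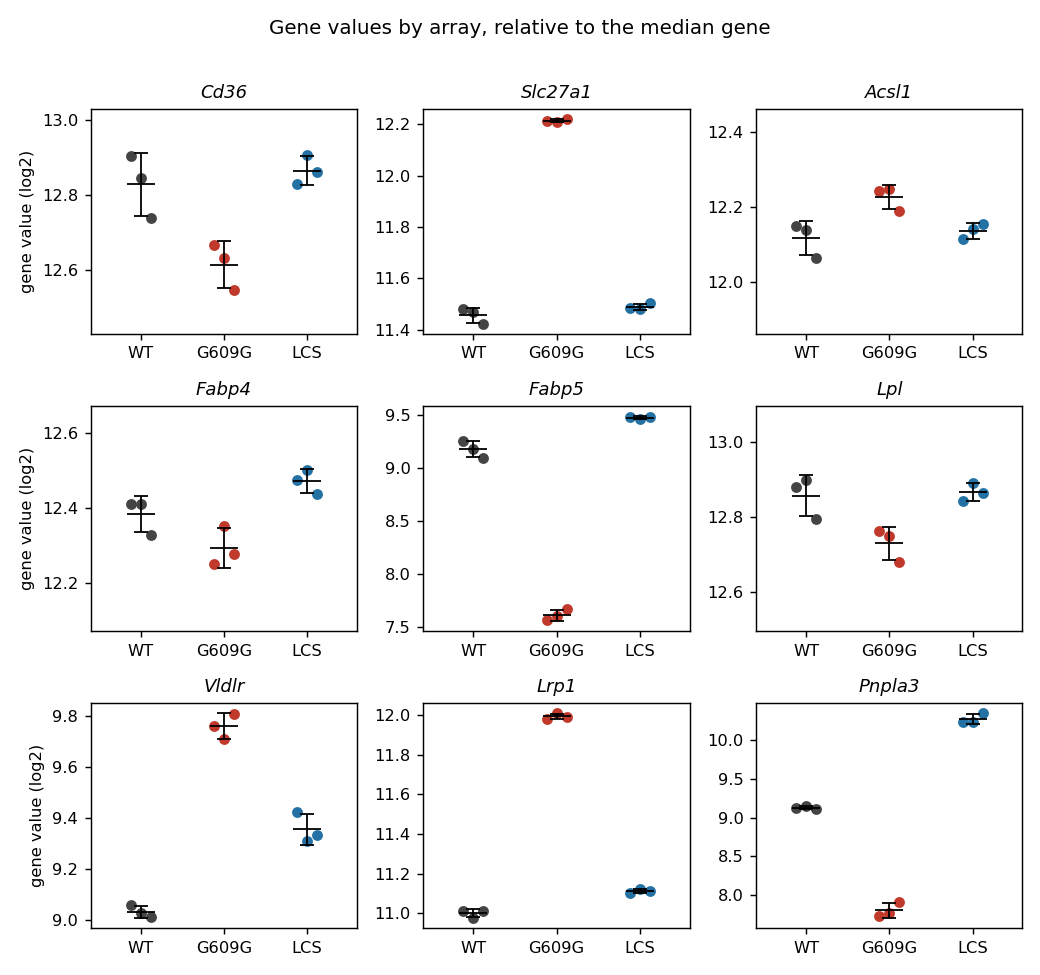
Gene value of each array (log2, relative to the median gene) for the 9 genes, with the mean and SD of 3 arrays as bars; each panel has its own y range. The 3 groups separate without overlap for Fabp5, Vldlr, Lrp1, Pnpla3 and, only narrowly between WT and LCS, Slc27a1. The WT and G609G arrays of Fabp4 overlap.

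Cd36 is a scavenger receptor that binds long-chain fatty acids at the cell surface. Its value was 12.90, 12.84 and 12.74 in the WT arrays, 12.67, 12.63 and 12.55 in the G609G arrays, and 12.83, 12.91 and 12.86 in the LCS arrays. Every G609G array lay below every other array, and WT and LCS overlapped. Cd36 fell in G609G by 0.21 (SE 0.043, adjusted p = 0.000805), a 1.16-fold lower level, and was lower than in LCS by the same test (log2 fold -0.25, SE 0.043, adjusted p = 0.000225). In LCS minus WT the fold was 0.036 (SE 0.043, adjusted p = 0.550). The size of the G609G change rests on the scale: it was -0.68 as deposited and -0.034 (adjusted p = 0.584) with arrays centred on their median over all probe sets. With that centring G609G minus LCS did not pass either (-0.088, adjusted p = 0.156). Of its 22 probe sets 21 were lower in G609G than in WT, and 12 of those without overlap of the groups.

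Surface partners of Cd36, which include the caveolin coat of the adipocyte membrane and palmitoyltransferases, were counted next. The counts of this and the later gene lists are read beside the shares of all tested genes, 34% higher and 36.7% lower in G609G minus WT and 22.3% and 17.7% in LCS minus WT, and nothing particular to a list is drawn from them. Of 15 tested genes, 3 rose and 9 fell in G609G minus WT, and 9 rose and 3 fell in LCS minus WT. As deposited the G609G counts were 0 and 14. Ehd2, a membrane ATPase at the caveolar neck, fell by 1.38 in G609G (adjusted p = 1.50e-12) and rose by 0.56 in LCS (adjusted p = 2.48e-08). The cavin Prkcdbp (Cavin3) likewise fell by 1.16 (adjusted p = 1.47e-10) and rose by 0.74 (adjusted p = 4.15e-08). Caveolin 1 (Cav1), which forms the coat, fell by 0.89 in G609G (adjusted p = 1.11e-10). Got2, the mitochondrial aspartate aminotransferase also known as a plasma membrane fatty acid binding protein, fell by 0.94 in LCS (adjusted p = 8.97e-10). It stood lower in G609G too, at 11.60 against 12.12 in WT.

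Slc27a1 (FATP1) is a transport protein with acyl-CoA synthetase activity, known from muscle and fat. Its value was 11.48, 11.47 and 11.42 in WT, 12.21, 12.21 and 12.22 in G609G, and 11.48, 11.48 and 11.50 in LCS. The G609G arrays stood apart from all others, and the LCS arrays all lay just above the WT arrays. Slc27a1 rose 1.69-fold in G609G (log2 fold 0.76, SE 0.025, adjusted p = 8.66e-11) and was 1.65-fold above LCS (log2 fold 0.72, SE 0.025, adjusted p = 1.02e-10). In LCS minus WT it did not pass the test (0.032, SE 0.025, adjusted p = 0.344). All 15 probe sets were higher in G609G than in WT, each without overlap of the groups. As deposited the fold in G609G was 0.29, with the same direction. Of the other Slc27a genes 2 were tested: Slc27a4 fell by 0.34 in G609G (adjusted p = 0.000622) and Slc27a2 by 0.53 in LCS (adjusted p = 0.000829).

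Acsl1 is the main long-chain acyl-CoA synthetase of adipocytes. Its value was 12.15, 12.14 and 12.06 in WT, 12.24, 12.25 and 12.19 in G609G, and 12.11, 12.14 and 12.15 in LCS. The G609G arrays lay above the others by less than the range of a group, with no overlap. The relative fold was 0.11 (SE 0.030, adjusted p = 0.00578) in G609G minus WT and 0.090 (SE 0.030, adjusted p = 0.0156) in G609G minus LCS. Its direction was not stable: Acsl1 was lower in G609G as deposited (-0.35, adjusted p = 1.72e-09) and with quantile normalization (-0.047, adjusted p = 0.0353), and without the third WT array the call was lost (0.057, adjusted p = 0.0758). LCS minus WT gave 0.019 (SE 0.030, adjusted p = 0.662). Of 27 probe sets, 20 were higher and 7 lower in G609G than in WT.

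Other acyl-CoA synthetases, which prime fatty acids of different lengths, moved both ways. Of 11 tested, 4 rose and 6 fell in G609G minus WT, and 3 rose and 3 fell in LCS minus WT; as deposited the G609G counts were 3 and 8. Acsm3, a medium-chain enzyme of mitochondria, rose by 1.43 in G609G (adjusted p = 8.75e-11) and fell by 0.83 in LCS (adjusted p = 5.79e-08). Acss1, the mitochondrial acetate enzyme, rose in both, by 0.71 in G609G (adjusted p = 4.72e-06) and by 0.80 in LCS (adjusted p = 5.37e-06). Acsl4, which prefers arachidonate, fell by 0.50 in LCS (adjusted p = 1.11e-05) and was at 8.71 in G609G against 8.95 in WT.

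Fabp4 (aP2) is the abundant fatty acid binding protein of the fat cell cytosol. Its value was 12.41, 12.41 and 12.33 in WT, 12.25, 12.35 and 12.28 in G609G, and 12.47, 12.50 and 12.44 in LCS. WT and G609G overlapped, and LCS lay above both. Between the mutants Fabp4 was lower in G609G by a log2 fold of -0.18 (SE 0.034, adjusted p = 0.000498), which was -0.015 (adjusted p = 0.746) with arrays centred on their median over all probe sets. Against WT the folds were -0.090 in G609G (SE 0.034, adjusted p = 0.0322) and 0.088 in LCS (SE 0.034, adjusted p = 0.0578). Neither comparison with WT was firm. The G609G call was kept only without the second G609G or the third WT array and was lost in the other 7 of 9 fits that left out 1 array, with adjusted p up to 0.157. The LCS difference passed without the third LCS array (0.14, adjusted p = 0.0121), the second WT array (0.11, adjusted p = 0.0401) or the third WT array (0.091, adjusted p = 0.0480). The direction against WT in G609G turned with that centring (0.091) and with a mean of probe sets (0.0019). Of its 12 probe sets 4 lay within 1 log2 unit of the top of the scale, where 0.0906% of all probe sets did. Without such probe sets the folds were -0.17 in G609G (adjusted p = 0.000333) and 0.23 in LCS (adjusted p = 9.98e-05).

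Fabp5, the epidermal form that fat cells and macrophages also make, had the larger change of the 2 binding proteins among the 9 genes. Its value was 9.26, 9.19 and 9.10 in WT, 7.56, 7.60 and 7.67 in G609G, and 9.49, 9.47 and 9.49 in LCS. The groups did not overlap, with G609G lowest and LCS highest. Fabp5 was 2.97-fold lower in G609G than in WT (log2 fold -1.57, SE 0.049, adjusted p = 5.23e-11) and 1.23-fold higher in LCS (log2 fold 0.30, SE 0.049, adjusted p = 0.000419). The mutants differed 3.66-fold (log2 fold -1.87, SE 0.049, adjusted p = 8.79e-12). All 5 probe sets above the filter were lower in G609G and higher in LCS than in WT, each without overlap. Its direction held under all 24 alternatives in both comparisons with WT, with folds from -2.04 to -1.39 in G609G and from 0.23 to 0.34 in LCS. Another 2 probe sets share Fabp5 with a second symbol and were left out, since only probe sets with 1 symbol were used.

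Other intracellular lipid binding proteins were divided. Of 13 tested, 4 rose and 7 fell in G609G minus WT, and 4 rose and 4 fell in LCS minus WT; as deposited the G609G counts were 3 and 9. Fabp3, the form of heart and skeletal muscle, rose by 1.81 in G609G (adjusted p = 8.80e-09) and was lower in LCS, at 4.89 against 6.05 in WT (adjusted p = 1.94e-06). Fabp9, the testis form, was at 9.94 in WT and fell to 7.08 in G609G (log2 fold -2.87, adjusted p = 1.99e-10) and to 4.30 in LCS (adjusted p = 2.51e-12). Both LCS values lie below 5.09, the filter on low values, so no fold is given for them. A list of 18 epididymis and testis genes had an array mean of 11.22 to 11.36 in WT, 8.58 to 8.65 in G609G and 9.55 to 9.62 in LCS, and its part in the Fabp9 values was not tested. Scp2, the peroxisomal sterol carrier protein, rose by 0.68 in G609G (adjusted p = 7.41e-08).

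Lpl, the lipase made by fat and muscle cells and moved to the capillary wall, changed little at the gene level. Its value was 12.88, 12.90 and 12.79 in WT, 12.76, 12.75 and 12.68 in G609G, and 12.84, 12.89 and 12.86 in LCS. The G609G arrays lay just below the rest, and WT and LCS overlapped. Lpl fell in G609G by 0.13 (SE 0.032, adjusted p = 0.00404) and was lower than in LCS (log2 fold -0.14, SE 0.032, adjusted p = 0.00245), while LCS minus WT gave 0.0089 (SE 0.032, adjusted p = 0.859). With arrays centred on their median over all probe sets the G609G direction turned against WT (0.053, adjusted p = 0.282) and against LCS (0.027, adjusted p = 0.587), and as deposited the fold was -0.59. Of 17 probe sets, 14 were lower in G609G than in WT and 4 lay within 1 log2 unit of the top of the scale.

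Genes of the lipase system were counted beside Lpl. Of 13 tested, 6 rose and 5 fell in G609G minus WT, and 6 rose and 2 fell in LCS minus WT; as deposited the G609G counts were 2 and 9. Lipg, the endothelial lipase, fell in both, by 1.86 in G609G (adjusted p = 3.17e-11) and by 1.62 in LCS (adjusted p = 5.35e-10). Apoc3, an apolipoprotein that inhibits the lipase, rose by 3.72 in G609G (adjusted p = 3.98e-11). The heparan sulfate proteoglycans Sdc1 and Hspg2 fell in G609G by 1.71 (adjusted p = 3.07e-10) and 0.62 (adjusted p = 4.37e-09). In LCS the anchor that holds the lipase on the capillary, Gpihbp1, rose by 0.46 (adjusted p = 2.54e-06) and the inhibitor Angptl4 by 0.49 (adjusted p = 8.40e-07).

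Vldlr, the very low density lipoprotein receptor, binds the particles on which the lipase works. Its value was 9.06, 9.03 and 9.01 in WT, 9.76, 9.71 and 9.81 in G609G, and 9.42, 9.31 and 9.33 in LCS. The groups did not overlap, with WT lowest and G609G highest. Vldlr rose in both mutants, 1.65-fold in G609G (log2 fold 0.73, SE 0.042, adjusted p = 1.65e-08) and 1.25-fold in LCS (log2 fold 0.32, SE 0.042, adjusted p = 7.48e-05). G609G lay above LCS by 0.40 (SE 0.042, adjusted p = 3.11e-06) on the relative scale, and this order turned as deposited (-0.093, adjusted p = 0.167). All 20 probe sets above the filter were higher in each mutant than in WT.

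Lrp1 is a large endocytic receptor of remnant particles and many other ligands. Its value was 11.01, 10.98 and 11.01 in WT, 11.98, 12.01 and 11.99 in G609G, and 11.10, 11.12 and 11.11 in LCS. Spread within a group was at most 0.020 (SD, n = 3), and the groups did not overlap. Lrp1 rose 1.99-fold in G609G (log2 fold 0.99, SE 0.025, adjusted p = 7.12e-12) and 1.08-fold in LCS (log2 fold 0.11, SE 0.025, adjusted p = 0.00332), and the mutants differed by 0.88 (SE 0.025, adjusted p = 1.64e-11). Its 93 probe sets were all higher in G609G than in WT without overlap, by 0.66 to 1.57, and 77 were higher in LCS. As deposited the fold in G609G was 0.53.

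The rest of the LDL receptor family and its partners were counted beside these receptors. Of 13 tested, 2 rose and 9 fell in G609G minus WT, and 4 rose and 3 fell in LCS minus WT; as deposited the G609G counts were 2 and 11. Lrpap1, the chaperone that folds Lrp1 and its kin, fell by 0.68 in G609G (adjusted p = 5.72e-08) and rose by 0.32 in LCS (adjusted p = 0.000144). Dab2, an adaptor for endocytosis of these receptors, fell in G609G (log2 fold -0.997, adjusted p = 1.43e-10). Mylip, the ubiquitin ligase that sends LDL and VLDL receptors to degradation, rose by 0.91 in G609G (adjusted p = 9.81e-09). Lrp6, a Wnt co-receptor, fell by 0.47 in G609G (adjusted p = 1.78e-07) and rose by 0.20 in LCS (adjusted p = 0.000645).

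Pnpla3 (adiponutrin), a patatin-family protein of lipid droplets known to respond to feeding, had the widest range of the 9 genes. Its value was 9.13, 9.15 and 9.10 in WT, 7.73, 7.77 and 7.91 in G609G, and 10.23, 10.23 and 10.34 in LCS. The groups did not overlap, with G609G lowest and LCS highest. Pnpla3 was 2.50-fold lower in G609G than in WT (log2 fold -1.32, SE 0.052, adjusted p = 4.58e-10) and 2.21-fold higher in LCS (log2 fold 1.14, SE 0.052, adjusted p = 8.77e-09). Between the mutants the level differed 5.53-fold (log2 fold -2.47, SE 0.052, adjusted p = 1.29e-12). As deposited the folds against WT were -1.79 and 1.18. The promoter printed above with its cAMP response element is that of this gene.

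Relatives and droplet partners of Pnpla3 were counted with it. Of 13 tested, 7 rose and 3 fell in G609G minus WT, and 7 rose and 1 fell in LCS minus WT; as deposited the G609G counts were 3 and 7. Pnpla7, a lysophospholipase, rose by 1.83 in G609G (adjusted p = 1.24e-11). Abhd5, the coactivator of adipose triglyceride lipase, rose in both, by 0.68 in G609G (adjusted p = 4.72e-08) and 0.42 in LCS (adjusted p = 1.19e-05). The droplet coat protein Plin (perilipin 1) fell by 1.09 in G609G (adjusted p = 9.70e-11), and S3-12 (Plin4) and Adfp (Plin2) rose in LCS by 0.26 (adjusted p = 1.90e-06) and 0.32 (adjusted p = 6.37e-06).

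Regulators known to act on these genes (transcription factors, coactivators and the insulin receptor) were counted last. Of 13 tested, 6 rose and 3 fell in G609G minus WT, and 2 rose and 3 fell in LCS minus WT; as deposited the G609G counts were 4 and 8. Klf15 rose by 2.12 in G609G (adjusted p = 2.77e-11), and Srebf1, the sterol-response factor known to drive Pnpla3, fell by 0.76 (adjusted p = 4.82e-09). In LCS, where Pnpla3 was higher, Srebf1 was at 9.23 against 9.30 in WT, and its part in the Pnpla3 values was not tested. Rxra, the dimer partner of the PPAR receptors, rose in both, by 0.87 in G609G (adjusted p = 6.75e-10) and by 0.45 in LCS (adjusted p = 1.29e-06). Ppargc1a rose by 1.57 in G609G (adjusted p = 1.67e-08) and fell by 0.85 in LCS (adjusted p = 1.50e-05). Pparg, the adipocyte master regulator, fell in LCS by 0.17 (adjusted p = 0.00419), and Nr1h3, which senses oxysterols, rose there by 0.68 (adjusted p = 3.73e-05). On the relative scale Pparg stood higher in G609G, at 10.91 against 10.59 in WT.

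Markers of other cells moved with these results. The array mean of 16 tested skeletal muscle genes was 5.15 to 5.34 in WT, 11.59 to 11.64 in G609G and 5.44 to 5.50 in LCS. The summed level, in log2, was 10.34 to 10.37 in WT, 16.12 to 16.18 in G609G and 11.25 to 11.28 in LCS. Several of these genes passed the filter on low values only through the G609G arrays, so no count of risen genes is given for either mutant. Tnnt3, fast skeletal troponin T, was at 5.40 in WT and 13.59 in G609G (adjusted p = 1.97e-15). Atp2a1, the fast muscle calcium pump, was at 4.61 in WT and 4.78 in LCS, below the filter, and 13.10 in G609G. It passed the filter only through the G609G arrays, so no p is given. Acta1, which was above the filter in all groups, rose by 1.57 in LCS minus WT (adjusted p = 1.45e-10). The genes whose values followed Slc27a1 and Lrp1 most closely included muscle genes: over the 9 arrays Slc27a1 correlated with Mybpc2 (r = 0.9996), Lifr and Musk, and Lrp1 with Ndrg2, Ugdh and Myl1, as a description across 3 groups of arrays that differ in many genes. Mybpc2, at 4.48 in WT and 4.72 in LCS, also passed the filter only through the G609G arrays (10.70). Slc27a1, Lrp1, Vldlr, Acsl1, Lpl, Cd36 and Fabp3 are genes that muscle is known to express too, and the part of muscle RNA in their G609G values was not tested.

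Adipocyte and stromal markers moved as well. Of 19 mature adipocyte markers 2 rose and 14 fell in G609G minus WT, with a median fold of -1.09, and 13 rose and 1 fell in LCS minus WT, with a median of 0.18; their array mean was 11.81 to 11.88 in WT, 10.61 to 10.64 in G609G and 12.06 on each LCS array. Leptin (Lep) fell from 10.49 in WT to 5.08 in G609G, just below the filter (adjusted p = 2.06e-15). It rose by 1.11 in LCS (adjusted p = 6.76e-09), and Fabp5 followed it across the 9 arrays with r = 0.999. Lep does not stand for the whole list. Cfd stood higher in G609G (13.47) than in WT (12.98), as did Pnpla2 (12.93 against 12.60). Retn hardly moved, at 13.15 in WT and 13.09 in G609G. Fewer fat cells, less RNA per cell and other causes cannot be told apart in such tissue samples, and none was tested. Of 18 macrophage markers, a cell type that also makes Fabp5, Cd36, Lpl and Lrp1, 2 rose and 12 fell in G609G and 12 rose and 1 fell in LCS, with array means of 8.32 to 8.37 in WT, 7.79 to 7.89 in G609G and 8.61 to 8.64 in LCS. Of 16 endothelial markers, cells that make Cd36, Fabp4 and Vldlr, 11 rose and 2 fell in G609G and 13 rose and 2 fell in LCS, with array means of 8.42 to 8.48, 8.78 to 8.85 and 8.69 to 8.76. Of 16 progenitor and fibroblast markers, cells rich in Lrp1, 1 rose and 13 fell in G609G and 12 rose and 1 fell in LCS. As deposited the endothelial balance in G609G minus WT turned, to 6 higher and 8 lower, and the other lists had no gene higher: 18 mature adipocyte, 17 macrophage and 15 progenitor and fibroblast markers were lower. In LCS minus WT the deposited values gave 12 endothelial, 14 adipocyte, 12 macrophage and 12 progenitor markers higher and 1 of each lower. The part of these cells in the values of the 9 genes was not tested.

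Patterns across the 9 arrays placed the members near different genes. Cd36 and Lpl were each other's nearest gene of all tested (r = 0.978), and Lpl was next to Adipoq (r = 0.973). Fabp4 lay nearest Ywhae (r = 0.971), Acsl1 nearest Nkx2-5 (r = 0.988), Vldlr nearest Rhbdf2 (r = 0.995), Fabp5 nearest Zeb2 (r = 0.999) and Pnpla3 nearest Pam (r = 0.999). These correlations are over 9 arrays that fall into 3 groups and are given as likeness only.

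Exon by exon, the members were not uniform. Of 222 member probe sets tested against the rest of their gene, limma's diffSplice called 53 when G609G was compared with WT, 15 when LCS was compared with WT and 62 between the mutants, where it called 16.4%, 1.98% and 19.1% of all probe sets. A splicing index fitted with limma (probe set minus gene value) called 14, 2 and 23 of them, where it called 12.1%, 0.882% and 15% of all probe sets. The share of member probe sets called thus lay above that of all probe sets by diffSplice, but below it by the splicing index in both G609G comparisons and near it in LCS minus WT. On simulated data whose probe sets varied unequally diffSplice called many unchanged probe sets and the splicing index did not, so a diffSplice p is read only together with the splicing index. The probe sets described are those called by both tests, taking for each gene and comparison the one with the lowest diffSplice p. The 2 probe sets called by both in LCS minus WT belonged to Pnpla3 and Vldlr.

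The Pnpla3 probe set 4493804 went against its gene in LCS. Its value was 9.11, 8.93 and 9.04 in WT, 6.01, 6.65 and 6.22 in G609G, and 6.72, 6.70 and 6.71 in LCS. Both mutants lay below WT without overlap, while 9 of the 11 probe sets of the gene were higher in LCS than in WT. Against the gene's other probe sets it differed by -3.38 in LCS minus WT (diffSplice adjusted p = 1.00e-25; splicing index adjusted p = 0.000106) and by -1.33 in G609G minus WT (adjusted p = 9.34e-09 and 0.00204). A second probe set, 4426750, hardly moved: it averaged 9.23 ± 0.29 in WT, 9.33 ± 0.49 for G609G and 9.22 ± 0.17 for LCS (SD, n = 3 each). In G609G minus WT it differed from the rest of the gene by 1.78 (diffSplice adjusted p = 5.39e-13; splicing index adjusted p = 0.0135). The other 9 probe sets were all lower in G609G and higher in LCS than in WT.

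**Figure D3:**
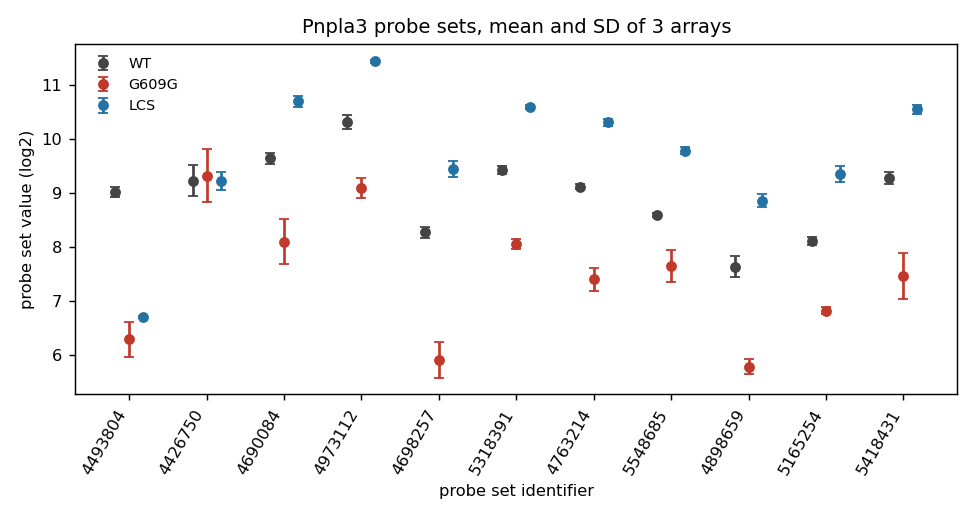
Mean and SD of 3 arrays per group (log2, relative to the median gene) for the 11 Pnpla3 probe sets, by identifier. The 9 probe sets on the right are ordered G609G, WT, LCS from low to high, 4493804 is lower in both mutants than in WT, and 4426750 is at a like level in all groups.

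Vldlr held a probe set above and one below its gene. Probe set 5060305 was at 9.57, 9.70 and 9.61 in WT, 10.79, 10.68 and 10.67 in G609G, and 10.53, 10.58 and 10.55 in LCS, so the LCS arrays lay close to the G609G arrays. Between LCS and WT it rose more than the gene's other probe sets, by 0.61 (diffSplice adjusted p = 0.000431; splicing index adjusted p = 0.0192). Probe set 4903989 averaged 8.65 ± 0.13 in WT, 8.76 ± 0.14 for G609G and 9.05 ± 0.034 for LCS (SD, n = 3 each) and lagged the rest of the gene in G609G minus WT by -0.65 (adjusted p = 1.98e-05 and 0.0189).

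All 93 Lrp1 probe sets rose in G609G, and a few differed from the rest in size. By both tests 1 lay above and 3 below the rest in G609G minus WT, and 2 above and 2 below in G609G minus LCS. Probe set 4940857 averaged 9.37 ± 0.12 in WT, 10.77 ± 0.037 for G609G and 9.82 ± 0.0090 for LCS (SD, n = 3 each) and rose more than the others in G609G minus WT by 0.40 (diffSplice adjusted p = 6.10e-07; splicing index adjusted p = 0.0473). Probe set 5262305 rose less, differing from the rest by -0.36 in that comparison (adjusted p = 7.83e-06 and 0.0292). Probe set 4709759 was alike in WT, at 10.01 ± 0.10, and LCS, at 10.03 ± 0.042, and stood at 11.36 ± 0.064 in G609G; between the mutants it differed from the rest by 0.45 (adjusted p = 5.35e-09 and 0.0248).

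Within Cd36 the dimmest probe set, 4734011, moved most, and within Lpl the dimmest, 4627111 and 5459133, did. Cd36 probe set 4734011, at 9.49 ± 0.20 in WT the lowest of the gene's 22, averaged 8.27 ± 0.31 in G609G and 9.91 ± 0.075 in LCS (SD, n = 3 each), and differed from the rest by -1.02 in G609G minus WT (diffSplice adjusted p = 8.26e-15; splicing index adjusted p = 0.0139). Lpl probe set 5459133 was at 7.38, 7.94 and 7.32 in WT, 5.81, 5.84 and 7.63 in G609G, and 8.81, 9.05 and 8.77 in LCS, so 1 G609G array lay among the WT arrays. Between the mutants it differed from the rest of the gene by -2.13 (adjusted p = 1.20e-16 and 0.0148). Across the 17 Lpl probe sets the fold in G609G minus WT correlated with the WT level with r = 0.96, and in LCS minus WT with r = -0.80. These Lpl correlations take in 5459133 and the still dimmer 4627111, at 5.62 in WT and 3.83 in G609G. All other Lpl probe sets were at 11.55 or above in WT, and r without the dim ones was not computed. For the 22 Cd36 probe sets r was 0.66 and -0.80, and for the 93 Lrp1 probe sets -0.77 and -0.65. The Cd36 correlations take in 4734011, and r without it was not computed. Other dim Cd36 probe sets did not all fall more than brighter ones. In G609G minus WT 4519287, at 11.39 in WT, had a fold of -0.097, and 4730039, at 12.85 in WT, had -0.50. Probe sets of 1 gene share the arrays and the transcript, and the fold shares the WT values with the level, so these correlations are descriptions.

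**Figure D4:**
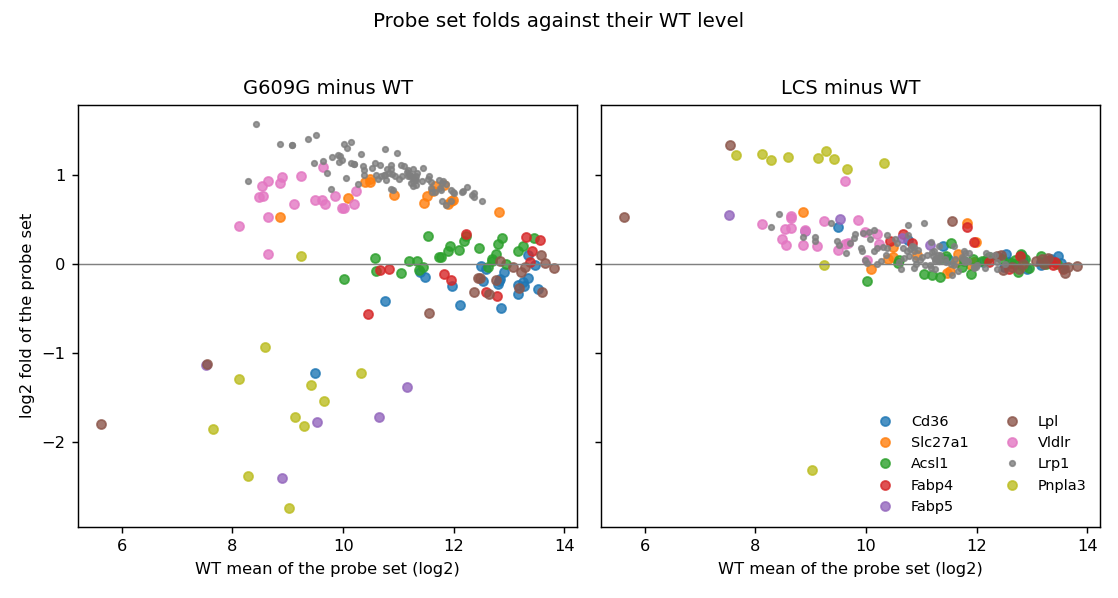
Log2 fold of each member probe set above the filter (y axis) against its WT mean (x axis, log2), for G609G minus WT and LCS minus WT, coloured by gene. The folds of Cd36, Lpl, Fabp4 and Acsl1 lie near 0 at high WT levels, with lower folds at the dimmest Cd36 and Lpl probe sets in G609G, and 1 Pnpla3 probe set lies far below 0 in LCS.

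Slc27a1 and Fabp4 also held probe sets that differed from the rest between the mutants. Slc27a1 probe set 5593557 averaged 8.85 ± 0.10 in WT, 9.38 ± 0.12 for G609G and 9.44 ± 0.10 for LCS (SD, n = 3 each), the 1 probe set of 15 that was not higher in G609G than in LCS, and differed from the rest by -0.77 (diffSplice adjusted p = 9.73e-15; splicing index adjusted p = 0.00901). Of the 12 Fabp4 probe sets 6 were called by both tests in G609G minus LCS, 4 above and 2 below the rest. One of them, 4812421, averaged 9.88 ± 0.23 in G609G and 10.70 ± 0.036 in LCS and differed by -0.70 (adjusted p = 1.12e-08 and 0.0182). Another, 4524730, went the other way in G609G, at 13.31 ± 0.092 in WT and 13.61 ± 0.038 in G609G, and differed from the rest by 0.38 in G609G minus WT (adjusted p = 0.00200 and 0.0176); it lay within 1 log2 unit of the top of the scale. Fabp5 had no probe set called by both tests in any comparison, and Acsl1 had none.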

How the data were processed

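Total RNA of 9 perigonadal fat samples was hybridised to Affymetrix exon arrays after biotin labelling, as the labels' protocols state. Log2 values for 229581 probe sets were deposited by the authors; their normalization and summary are not given in the sources used here, and the submitters' processing notes name build mm9. While 10 samples are mentioned in the design text, the arrays used here number 9. The number of arrays limits precision.

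From these log2 values, probe sets with 1 symbol in the platform annotation (208397; 3965 had several and 17219 none) were turned into gene values by median polish of up to 10 rounds. Testing was limited to genes whose mean exceeded 5.09, the 25th percentile, over 3 or more probe sets. From every array the median of its deviations from those means was then taken off ("relative to the median gene"). Adjusted p-values come from limma (lmFit and eBayes with a trend, all 9 arrays, Benjamini-Hochberg, threshold 0.05), and for single probe sets from limma's diffSplice (158136 probe sets with a mean above 5.01 in 13882 genes) or a splicing index with the same limma steps. The code was tested on simulated data, where diffSplice called many unchanged probe sets when their variances were unequal and the splicing index did not; diffSplice p-values are therefore read only with the splicing index. Titles give the groups and replicate numbers but not what arrays of equal number share. Between WT and G609G, the deviations of arrays with equal numbers had r of 0.168, 0.145 and 0.337. The other comparisons gave r from -0.121 to 0.204, and the 0.204, for replicate 2 of LCS and WT, exceeds 0.168 and 0.145. No r is given for arrays of different numbers, so these values do not show pairs. A replicate block was tried with pairing as an assumption. No array pair held over 1.89% identical values.

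The members and lists were chosen with earlier results of these data known. Of 251 list symbols 219 were measured and 198 tested. Named genes are the members, up to 4 genes of lowest p per list and comparison, list genes whose level stands beside a member, and the 3 genes most correlated with each member; single probe sets are those called by both tests with the lowest diffSplice p per member and comparison, and 1 below the rest of Lrp1, chosen after their values were seen. Alternatives covered scaling, summary, filters, variance model, arrays fitted, the block, the methods' t-test (unpaired, fold of 1.5 and p of 0.05) and leaving out arrays; cyclic loess and leaving out probe sets near the top of the scale were added after seeing the data. Promoters are RefSeq's on GRCm38.p6. Software was limma 3.58.1 in R 4.3.3, with data reading by the data.table package (version 1.17.8), and matplotlib 3.10.9 under Python 3.11.15.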

Additional observations from a re-analysis of the deposited data

Results flagged for a closer look

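Fabp5 and Pnpla3 moved in opposite directions in the mutants. A member was flagged when the arrays of each mutant did not overlap those of WT, in opposite directions. The mutants also had to differ by limma's test (adjusted p under 0.05). Meeting these conditions is therefore how the genes were chosen and adds no support. For both genes every G609G array lay below every WT array and every LCS array above every WT array. The difference between the mutants was -1.87 for Fabp5 (SE 0.049, adjusted p = 8.79e-12) and -2.47 for Pnpla3 (SE 0.052, adjusted p = 1.29e-12). In that comparison 73.8% of all genes passed, and the share of all genes meeting the whole rule was not counted. Both comparisons with WT use the same 3 WT arrays. Leaving out each array in turn gave -1.88 to -1.81 for Fabp5 and -2.62 to -2.49 for Pnpla3.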

How the results depend on the processing

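On the relative scale, the directions of Fabp5, Slc27a1, Lrp1 and Pnpla3 held in all 3 comparisons under every alternative run, and so did that of Vldlr except G609G minus LCS as deposited (-0.093). As deposited Acsl1 was -0.35 against WT and -0.41 against LCS in G609G, and with quantile normalization -0.047 and -0.042. With arrays centred on their median over all probe sets Fabp4 was 0.091 and Lpl 0.053 in G609G minus WT, and Lpl 0.027 in G609G minus LCS; with a mean of probe sets Fabp4 was 0.0019 in G609G minus WT. Between LCS and WT, where neither gene was called, Acsl1 was -0.0048 with cyclic loess, -0.0070 with a mean of probe sets and -0.0048 with quantile normalization, and Lpl was -0.011 with array weights, -0.0092 with cyclic loess and -0.0046 with genes above the 50th percentile. There leaving out 1 array gave -0.029 to 0.040 for Acsl1, -0.017 to 0.070 for Cd36 and -0.040 to 0.040 for Lpl. Without the first LCS array the Acsl1 call in G609G minus LCS was lost (0.080, adjusted p = 0.0670). The methods' t-test called 2914 genes for G609G against WT, 932 for LCS against WT and 3318 between the mutants, with 5, 1 and 4 members; after Benjamini-Hochberg it called 2869, 914 and 3296 genes, again with 5, 1 and 4 members. With no filter 12558 genes were called in G609G minus LCS. The splicing index called 14, 2 and 23 member probe sets where diffSplice called 53, 15 and 62, and leaving out 1 array gave 39 to 65 in G609G minus LCS, the lowest without the first LCS array. The replicate block over 9 arrays called 9, 5 and 9 members and changed 1 member call, Fabp4 in LCS minus WT (0.088, adjusted p = 0.0329). The cause of these changes was not tested. Probe sets within 1 log2 unit of the top of the scale numbered 4 each in Cd36, Lpl and Fabp4 and 2 in Acsl1, and without them 1 member call changed, Fabp4 in LCS minus WT (0.23, adjusted p = 9.98e-05).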

Other observations

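Leptin and natriuretic peptide clearance receptor transcripts, which are not among the 9 genes, took the order of Fabp5 and Pnpla3: Lep was at 10.49 in WT, 5.08 in G609G and 11.60 in LCS, and Npr3 rose by 0.82 in LCS (adjusted p = 1.17e-08) and fell by 2.78 in G609G (adjusted p = 4.74e-14). The array mean of 11 measured brown and beige adipocyte genes was 5.93 to 6.08 in WT, 6.69 to 6.74 in G609G and 5.76 to 5.85 in LCS. These genes did not all move alike. Ucp1, which did not pass the filter, was at 5.96 in WT and 4.83 in G609G. Of the 6 tested, 5 rose and 1, Prdm16, fell in G609G minus WT, where 34% and 36.7% of all genes did. Cox8b, among those that rose, was at 8.98 in WT and 11.77 in G609G. The array mean of 9 measured slow and cardiac muscle genes was 4.42 to 4.67 in WT, 6.12 to 6.23 in G609G and 4.46 to 4.56 in LCS. Of 17 epididymis and testis genes 3 rose and 13 fell in G609G minus WT, and 4 rose and 9 fell in LCS minus WT.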
